A study of Rattus norvegicus with 32 samples.

Results

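The genes described here were 10 members of the CXC chemokine system in rat liver sinusoidal endothelial cells (LSECs), the fenestrated cells that line the smallest vessels of the liver. They were chosen by name: the ligands Cxcl1, Cxcl2, Cxcl3, Cxcl9, Cxcl10, Cxcl11, Cxcl12 and Cxcl16 and the receptors Cxcr4 and Ackr3, 10 of the 32623 genes in the files. RNA-seq was available from 22 libraries of a carbon tetrachloride (CCl4) time course. Male Wistar Han rats were left untreated (healthy, n = 6) or breathed CCl4 for 2 weeks (acute injury, n = 5), 6 weeks (fibrosis, n = 5) or 12 to 14 weeks (cirrhosis, n = 6, the labels give only the agent, and the duration comes from the series' design). The drinking water of this model held phenobarbital, which speeds the breakdown of CCl4 in the liver, and the cells were isolated days after the last dose. Another 10 libraries came from a thioacetamide (TAA) experiment, 5 labelled control and 5 labelled TAA control. For these the labels give Wistar Han and the series' design gives Sprague-Dawley, and the labels do not settle which group received TAA.

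Chemokines are small secreted proteins that guide leukocytes, and the CXC class carries a pair of cysteines separated by a single residue. Cxcl1, Cxcl2 and Cxcl3 draw neutrophils through Cxcr2 and are classical NF-kappaB targets. Cxcl9, Cxcl10 and Cxcl11 are induced by interferons and draw activated T and NK cells through Cxcr3. Cxcl12 signals through Cxcr4 and is taken up by the atypical receptor Ackr3, which signals through arrestins rather than G proteins. Ackr3 also takes up Cxcl11. Cxcl16 exists as a membrane-bound form and as a form shed by the metalloproteases Adam10 and Adam17, and its receptor is Cxcr6. In the liver sinusoid, the balance of Cxcr4 and Ackr3 on endothelial cells is known for its part in regeneration and fibrosis.

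Several members lie side by side in the rat genome. In the RefSeq annotation of build GRCr8, Cxcl11, Cxcl10 and Cxcl9 are consecutive coding genes on chromosome 14, and Cxcl2 and Cxcl1 are next to each other on the same chromosome. Promoter sequences of RefSeq (build GRCr8, 250 bases before to 50 after the start of a gene) were matched by symbol for 9 of the 10 members, not Cxcl3. Both strands were searched for the kappaB motif, the ISRE (GAAANNGAAA, bound by interferon regulatory factors), the AP-1 motif (TGANTCA) and the GAS motif (TTCNNNGAA, bound by STAT dimers). The kappaB motif was found in 4 of the 9 promoters, those of Cxcl1, Cxcl2, Cxcl10 and Cxcl11, and in 7.51% of all 33469 promoters. The ISRE was found in 1, that of Cxcl10, and in 3.92% of all promoters. The AP-1 motif was found in 2, those of Cxcl10 and Cxcl11 (7.33% of all), and the GAS motif in 2, those of Cxcl9 and Cxcl11 (8.87% of all). A match describes the letters of the window and is not evidence of binding.

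The upstream stretches with a kappaB match are shown because the genes that hold them moved in opposite directions in the libraries, Cxcl1 and Cxcl2 up and Cxcl10 and Cxcl11 down at the early stages of injury. Capitals mark the kappaB matches, which overlap each other in Cxcl1, Cxcl2 and the second site of Cxcl10, and the ISRE at the 5′ end of the Cxcl10 stretch. Each stretch runs 5′ to 3′ along the gene's own strand and ends at the base before its start.
Cxcl1, chr14:17479322-17479471, minus strand: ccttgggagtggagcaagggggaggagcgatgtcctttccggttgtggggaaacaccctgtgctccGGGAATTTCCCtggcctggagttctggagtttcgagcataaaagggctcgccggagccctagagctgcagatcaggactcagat
Cxcl2, chr14:17467256-17467405, minus strand: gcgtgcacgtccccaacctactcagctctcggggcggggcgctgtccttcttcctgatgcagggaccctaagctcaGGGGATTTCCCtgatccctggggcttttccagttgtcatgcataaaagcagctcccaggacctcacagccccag
Cxcl10, chr14:15988816-15989065, plus strand: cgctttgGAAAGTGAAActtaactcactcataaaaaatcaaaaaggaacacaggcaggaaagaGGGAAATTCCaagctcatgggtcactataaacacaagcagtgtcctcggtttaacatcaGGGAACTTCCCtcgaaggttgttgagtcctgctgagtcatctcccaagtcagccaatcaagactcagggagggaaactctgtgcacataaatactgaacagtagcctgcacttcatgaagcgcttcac
Cxcl11, chr14:15973578-15973727, plus strand: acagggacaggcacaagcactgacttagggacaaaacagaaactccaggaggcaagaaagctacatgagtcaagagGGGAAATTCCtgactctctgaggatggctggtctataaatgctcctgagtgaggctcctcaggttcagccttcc
The first kappaB match began 84 bases before the start of Cxcl1, 74 before that of Cxcl2, 187 and 128 before that of Cxcl10 and 74 before that of Cxcl11. The sequence of the Cxcl11 match was the same as that of the farther Cxcl10 match, GGGAAATTCC.

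The libraries held 25646531 to 46464289 counts. Levels are given in CPM (counts-per-million) after TMM scaling within an experiment, so levels of the time course and of the TAA experiment are not set against each other. A gene was called changed at an unadjusted p below 0.05 and a fold change above 1.5, with limma-voom fitted over all genes kept for the comparison. Differences between groups are log2 fold changes ± SE unless said otherwise, and adjusted p-values are Benjamini-Hochberg values of the same fit. All 10 members were tested in each of 7 comparisons. Endothelial identity was checked first, and the stages differed in it. The pan-endothelial cadherin Cdh5 stood at 1294 ± 430.3 CPM (SD, n = 6) in healthy and 1597 ± 336 CPM (SD, n = 5) in acute libraries, whereas the scavenger receptor Stab2, which defines the sinusoidal type, stood at 3483 ± 1304 and 148 ± 71.7 CPM. Of 11 LSEC markers in the files, 9 were lower at the acute stage, 10 at fibrosis and 3 at cirrhosis, where 1 (Lyve1) was higher. Their summed level was 15597 to 30126 CPM in healthy, 3864 to 4501 in acute, 2688 to 3727 in fibrosis and 16073 to 20397 in cirrhosis libraries. Cdh5 and Stab2 were picked as defining markers after their values had been seen. The endothelial receptor gene Kdr of the same list, also named after its values were seen, did not go with Cdh5. It stood at 3644 ± 1510 CPM (SD, n = 6) in healthy and 236 ± 137 CPM (SD, n = 5) in acute libraries. Cdh5 alone therefore does not show that general endothelial genes kept their level. In bulk libraries fewer cells of a type and less RNA per cell cannot be told apart.

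The members split by role at the early stages of injury, the neutrophil ligands and Cxcl16 higher and the interferon-induced ligands, Cxcl12 and Ackr3 lower, and 8 of 10 were not called at cirrhosis. At the acute stage 9 of 10 members were called, 4 higher and 5 lower, where 74.1% of all tested genes were called, 35.8% higher and 38.3% lower. At fibrosis 9 were called, again 4 higher and 5 lower, with 71.2% of all genes called, 35.8% higher and 35.4% lower. At cirrhosis 2 were called, 1 higher and 1 lower, with 54.5% of all genes called, 28.8% higher and 25.7% lower. These shares of all genes were themselves large, and the members' counts are a description beside them. The median log2 fold change of the members was -0.65, -0.62 and 0.13 at the 3 stages, beside -0.09, -0.03 and 0.07 over all tested genes. These 3 comparisons share the healthy libraries.

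**Figure D1:**
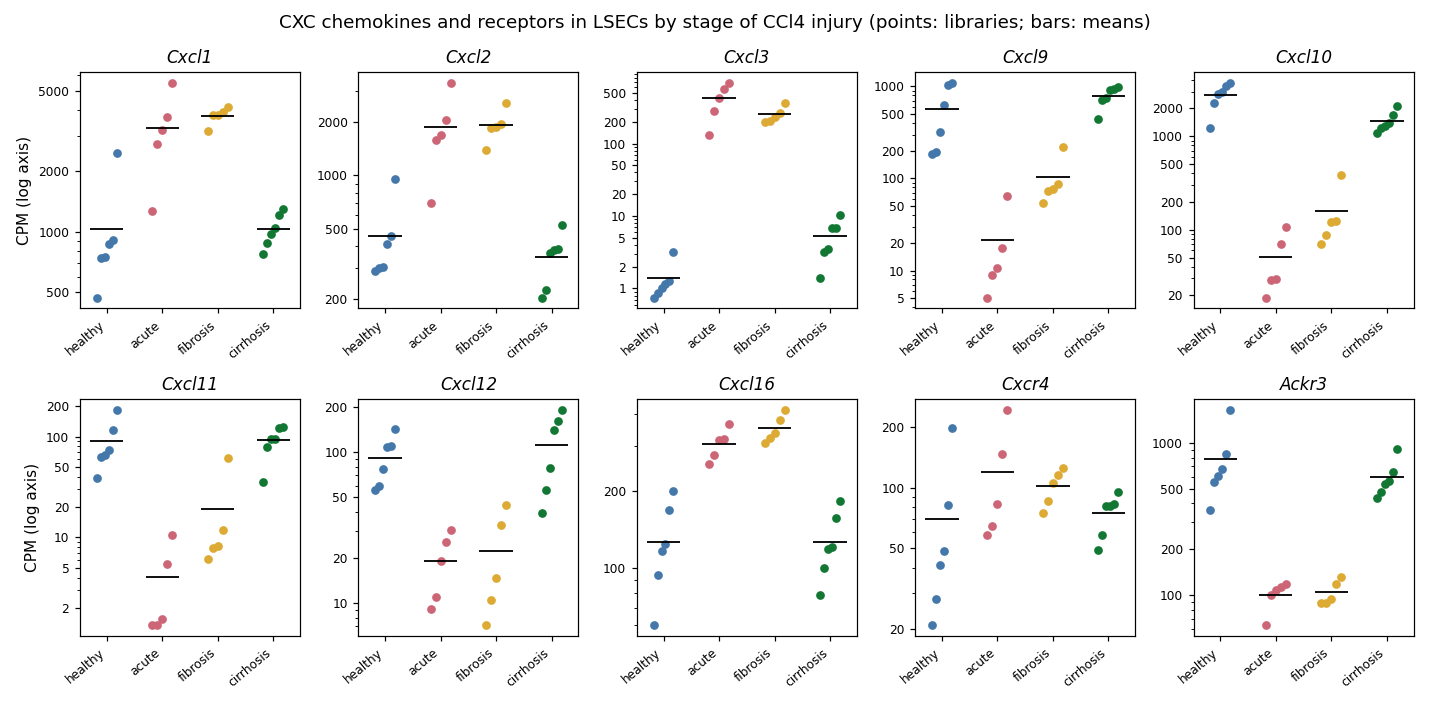
CPM (log axis) of each of the 10 genes in the 22 libraries of the CCl4 time course, with points for libraries and bars for group means. Cxcl3 lay at 132 to 692 CPM in the acute libraries against 0.751 to 3.19 in the healthy ones, and Cxcl10 at 18.8 to 107 against 1221 to 3764.

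The neutrophil-attracting ligands rose at the acute stage and at fibrosis. Cxcl1 (ENSRNOG00000002802) had a lowest, median and highest level of 472, 811 and 2447 CPM in the healthy libraries. In the acute libraries it stood at 2711, 1269, 3198, 3693 and 5494 CPM. In the fibrosis libraries it stood at 3778, 3936, 4150.1, 3816 and 3149 CPM. All 5 fibrosis libraries lay above all 6 healthy ones, while 1 acute library (replicate 2) lay below the highest healthy library (replicate 3). The rise was 1.75 ± 0.42 on the log2 scale (SE, 3.37-fold, adjusted p = 0.00206) at the acute stage and 2.13 ± 0.32 (4.39-fold, adjusted p = 8.22e-05) at fibrosis. At cirrhosis its level ran from 777 over a median of 1013 to 1292 CPM, inside the healthy range. The top of that range was healthy replicate 3 alone, and the next highest healthy library held 914 CPM. Healthy replicate 3 was also the highest healthy library for Cxcl2, Cxcl3, Cxcl9, Cxcl11, Cxcl16 and Ackr3, and had the lowest TMM factor (0.712). The difference from healthy was 0.19 ± 0.31 (95% interval -0.48 to 0.86, adjusted p = 0.619).

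Cxcl2 (ENSRNOG00000002792), a close relative that acts on the same receptor, had the same order of group means as Cxcl1. Its healthy levels ran from 288 over a median of 355 to 961 CPM. Acute levels of Cxcl2 were 2048, 697, 1701, 1593 and 3352 CPM. The fibrosis libraries held 1954, 1847, 2581, 1876 and 1389.9 CPM, all above the healthy ones, and acute replicate 2 was again the lowest of its group. Cxcl2 rose by 2.06 ± 0.39 at the acute stage (4.18-fold, adjusted p = 4.23e-04) and by 2.28 ± 0.29 at fibrosis (4.85-fold, adjusted p = 2.16e-05). The cirrhosis libraries lay at 204 to 526 CPM with a median of 373, and the difference from healthy was -0.30 ± 0.32 (95% interval -0.99 to 0.38, adjusted p = 0.431).

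Cxcl3 (ENSRNOG00000028043), the third of these ligands, had the widest range of the 10 members. It was low in healthy LSECs, with a lowest, median and highest level of 0.751, 1.09 and 3.19 CPM. Acute levels of Cxcl3 were 283, 132, 425, 692 and 567 CPM and the fibrosis libraries 233, 206, 199, 367 and 266 CPM. Every library of both groups lay above every healthy library. The log2 rise was 8.26 ± 0.58 (306-fold, adjusted p = 1.02e-07) at the acute stage and 7.74 ± 0.33 (214-fold, adjusted p = 4.70e-09) at fibrosis. At cirrhosis it stood at 3.16, 1.39, 3.48, 10.2, 6.78 and 6.89 CPM (replicates 1 to 6), with a median of 5.13. The group overlapped the healthy one but was higher by 1.88 ± 0.54 (3.69-fold, adjusted p = 0.00947). Replicates 1 to 3 lay at or near the healthy range and replicates 4 to 6 above it. Reads that fit several related genes are divided between them by the authors' quantification, so the share of each of Cxcl1, Cxcl2 and Cxcl3 carries that uncertainty.

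The interferon-induced ligands went the other way at the same stages. Cxcl10 (ENSRNOG00000022256) stood at a lowest, median and highest level of 1221, 2903 and 3764 CPM in healthy LSECs. In the acute libraries it stood at 29.7, 29.1, 69.8, 18.8 and 107 CPM. In the fibrosis libraries it stood at 124, 121, 382, 88.3 and 69.5 CPM. Neither group overlapped the healthy one. Cxcl10 fell by 5.95 ± 0.44 on the log2 scale at the acute stage (61.8-fold lower, adjusted p = 1.67e-07) and fell by 4.27 ± 0.41 at fibrosis (19.2-fold lower, adjusted p = 2.05e-06). The cirrhosis libraries held 1081 to 2108 CPM, with a median of 1345. Cxcl10 was the member called lower at cirrhosis, at -0.85 ± 0.27 (1.80-fold, adjusted p = 0.0157). That call was lost without TMM scaling (-0.51, adjusted p = 0.102) and in a single fit over all 22 libraries (-0.86, adjusted p = 0.0815).

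Cxcl9 (ENSRNOG00000022242) spread widely in healthy LSECs, from 186 over a median of 473 to 1099 CPM. Acute levels of Cxcl9 were 8.93, 10.5, 17.7, 5.09 and 64.4 CPM, all below the healthy ones. The fibrosis libraries held 77.4, 87.1, 221, 73.5 and 53.5 CPM, of which replicate 15 reached into the healthy range. Cxcl9 fell by 5.00 ± 0.67 at the acute stage (32.1-fold lower, adjusted p = 2.50e-05) and fell by 2.25 ± 0.54 at fibrosis (4.77-fold lower, adjusted p = 0.00224). At cirrhosis it ran from 441 over 836 to 978 CPM and differed from healthy by 0.78 ± 0.45 (95% interval -0.18 to 1.74, adjusted p = 0.150). This value passed the call threshold without TMM scaling (1.12, adjusted p = 0.0417) and with weights per library (1.02, adjusted p = 0.0117).

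Cxcl11 (ENSRNOG00000022298), which binds both Cxcr3 and Ackr3, had a healthy range of 38.9 to 184 CPM with a median of 69.5. The acute libraries held 1.55, 1.36, 5.42, 1.36 and 10.5 CPM, all below the healthy ones. The fibrosis libraries held 11.9, 8.18, 61.3, 7.78 and 6.13 CPM, and replicate 15 alone overlapped the healthy group. Cxcl11 fell by 4.85 ± 0.59 at the acute stage (28.8-fold, adjusted p = 1.12e-05) and fell by 2.64 ± 0.55 at fibrosis (6.22-fold, adjusted p = 9.62e-04). The cirrhosis libraries held 35.8 to 125 CPM with a median of 94.9, a difference from healthy of 0.12 ± 0.37 (95% interval -0.68 to 0.92, adjusted p = 0.796). Fibrosis replicate 15 was the highest library of its group for all 3 of these ligands, and acute replicate 8 was the highest of the acute group.

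The Cxcl12 axis was lower in its ligand and in its scavenging receptor. Cxcl12 (ENSRNOG00000013589) had healthy levels of 56.4 to 143 CPM with a median of 92.4. The acute libraries held 30.7, 9.15, 11, 19 and 25.2 CPM and the fibrosis libraries 14.7, 44.6, 10.5, 32.8 and 7.18 CPM, so that neither group overlapped the healthy one. Cxcl12 fell by 2.31 ± 0.34 at the acute stage (4.97-fold, adjusted p = 5.77e-05) and fell by 2.25 ± 0.44 at fibrosis (4.75-fold, adjusted p = 5.46e-04). The cirrhosis libraries held 162, 140, 190.4, 78.6, 55.9 and 39.2 CPM (replicates 1 to 6). Their median of 109 thus lay between 2 sets of libraries. The difference from healthy was 0.14 ± 0.39 (95% interval -0.70 to 0.97, adjusted p = 0.773).

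Ackr3 (ENSRNOG00000019622) was the receptor that was called at both early stages. Its healthy levels ran from 361 over 639 to 1647 CPM. The acute libraries held 118, 113, 99.6, 63.9 and 107 CPM and the fibrosis libraries 93.7, 88.8, 131, 119 and 88.5 CPM, all below the healthy ones. Ackr3 fell by 2.79 ± 0.32 at the acute stage (6.93-fold, adjusted p = 6.06e-06) and fell by 2.69 ± 0.31 at fibrosis (6.46-fold, adjusted p = 7.69e-06). The cirrhosis libraries lay at 435 to 904 CPM with a median of 551, and the difference from healthy was -0.26 ± 0.31 (95% interval -0.94 to 0.41, adjusted p = 0.485).

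Cxcr4 (ENSRNOG00000003866), the signalling receptor of Cxcl12, was the member not called at any stage. Its healthy libraries ran from 21.0 over 44.9 to 197 CPM, with replicate 1 at the top. The acute libraries held 64.2, 146, 82.8, 242 and 58.1 CPM and the fibrosis libraries 74.7, 125, 115, 106 and 86.0 CPM, and both groups overlapped the healthy one. The difference from healthy was 1.02 ± 0.55 at the acute stage (95% interval -0.18 to 2.21, adjusted p = 0.109), 1.01 ± 0.48 at fibrosis (95% interval -0.03 to 2.05, adjusted p = 0.0718) and 0.50 ± 0.45 at cirrhosis (95% interval -0.46 to 1.47, adjusted p = 0.351). Without healthy replicate 1 it was called higher at all 3 stages, at 1.48 (adjusted p = 0.0109), 1.40 (adjusted p = 0.00255) and 0.89 (adjusted p = 0.0354).

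Cxcl16 (ENSRNOG00000026647) rose at both early stages. Its healthy levels ran from 60.2 over 120.1 to 199 CPM. The acute libraries held 319, 254, 276, 317 and 365 CPM and the fibrosis libraries 307, 378, 414, 322 and 335 CPM, all above the healthy ones. The rise was 1.40 ± 0.27 at the acute stage (2.63-fold, adjusted p = 4.28e-04) and 1.63 ± 0.26 at fibrosis (3.10-fold, adjusted p = 1.29e-04). At cirrhosis it lay at 78.9 to 183 CPM with a median of 119.7, a difference of 0.05 ± 0.29 (95% interval -0.57 to 0.67, adjusted p = 0.884).

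**Figure D2:**
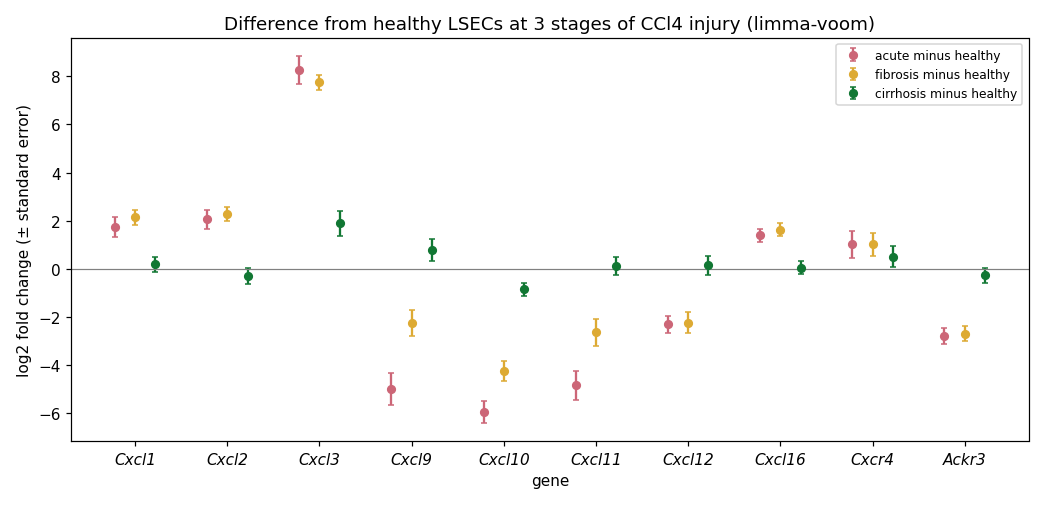
Log2 fold change from healthy LSECs (vertical axis, points with standard errors from limma-voom) for each gene at the acute, fibrosis and cirrhosis stages of CCl4 injury. Cxcl1, Cxcl2, Cxcl3 and Cxcl16 lie above 0 and Cxcl9 to Cxcl12 and Ackr3 below 0 at the first 2 stages, while the cirrhosis points lie between -0.85 and 1.88.

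The stages were then compared with each other. Between fibrosis and the acute stage 3 members were called, 3 higher and 0 lower, where 15.7% of all tested genes were called, 14.3% higher and 1.39% lower. They were the interferon-induced ligands. Cxcl9 was higher at fibrosis by 2.84 ± 0.59 (adjusted p = 0.0105), Cxcl10 by 1.76 ± 0.54 (adjusted p = 0.0427) and Cxcl11 by 2.25 ± 0.80 (adjusted p = 0.0711, so not past an adjusted threshold). The ranges of the groups overlapped for each. Cxcl16, which differed by 0.28 ± 0.11 (adjusted p = 0.0934), did not reach the fold threshold. The other members differed by -0.47 (Cxcl3) to 0.42 (Cxcl1) with adjusted p-values of 0.357 to 0.943. The members' median was 0.27, beside 0.00 over all genes.

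From fibrosis to cirrhosis 9 members were called, 5 higher and 4 lower, where 64.2% of all genes were called, 34.5% higher and 29.7% lower. The 5 that were lower at fibrosis than in healthy LSECs were higher at cirrhosis than at fibrosis. These were Cxcl9 by 3.08 ± 0.34 (adjusted p = 4.00e-06), Cxcl10 by 3.47 ± 0.39 (adjusted p = 5.24e-06), Cxcl11 by 2.83 ± 0.52 (adjusted p = 3.05e-04), Cxcl12 by 2.44 ± 0.54 (adjusted p = 0.00128) and Ackr3 by 2.49 ± 0.18 (adjusted p = 8.61e-08). Cxcl1 fell by 1.88 ± 0.14 (adjusted p = 1.11e-07), Cxcl2 fell by 2.52 ± 0.25 (adjusted p = 1.57e-06), Cxcl3 fell by 5.82 ± 0.38 (adjusted p = 4.66e-08) and Cxcl16 fell by 1.52 ± 0.19 (adjusted p = 1.37e-05). The groups overlapped for Cxcl11 and Cxcl12 and not for the other called members. The share of all genes without overlap was not counted, so this only describes the members. Cxcr4 differed by -0.46 ± 0.18 (adjusted p = 0.0376), under the fold threshold.

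Between cirrhosis and the acute stage 9 members were called, 5 higher and 4 lower, where 69.7% of all genes were called, 37.8% higher and 31.9% lower. Cxcl9 differed the most among the higher members, by 5.84 ± 0.48 (57.4-fold, adjusted p = 2.16e-07), and Cxcl3 among the lower ones, by -6.36 ± 0.56 (82.0-fold, adjusted p = 4.06e-07). Cxcr4 differed by -0.48 ± 0.34 (adjusted p = 0.204). The order of the levels therefore put fibrosis or the acute stage at the top for Cxcl1, Cxcl2, Cxcl3 and Cxcl16, with no call between them. Between fibrosis and the acute stage Cxcl1 did pass the call threshold with weights per library (0.76, adjusted p = 0.0462) and without acute replicate 8 (0.65, adjusted p = 0.0901), and Cxcl3 without acute replicate 2 (-0.84, adjusted p = 0.0658). The order put healthy and cirrhosis at the top for Cxcl9, Cxcl11, Cxcl12 and Ackr3, again with no call between them. For Cxcl10 the order of mean levels was healthy, cirrhosis, fibrosis and acute, with a call at each step.

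Ratios within a library do not depend on the scaling factors. The log2 ratio of Ackr3 to Cxcr4 counts had a mean of 3.75 ± 1.28 (SD, n = 6) in healthy, -0.05 ± 1.17 (SD, n = 5) in acute, 0.05 ± 0.32 (SD, n = 5) in fibrosis and 2.99 ± 0.67 (SD, n = 6) in cirrhosis libraries. The lowest healthy library stood at 1.77 and the highest acute library at 0.89, while the cirrhosis libraries ran from 2.43 to 3.96 and the fibrosis libraries from -0.49 to 0.33. Healthy and cirrhosis libraries thus did not overlap acute and fibrosis libraries. The log2 ratio of Cxcl10 to Cxcl1 counts ran from 0.28 to 2.87 in healthy, from -7.62 to -5.45 in acute, from -5.50 to -3.44 in fibrosis and from 0.04 to 0.94 in cirrhosis libraries. These ratios make no allowance for transcript length, so only their differences between groups are read, and here too healthy and cirrhosis libraries did not overlap acute and fibrosis libraries. These pairs of genes were chosen after the members' values had been seen, so no test is given.

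**Figure D3:**
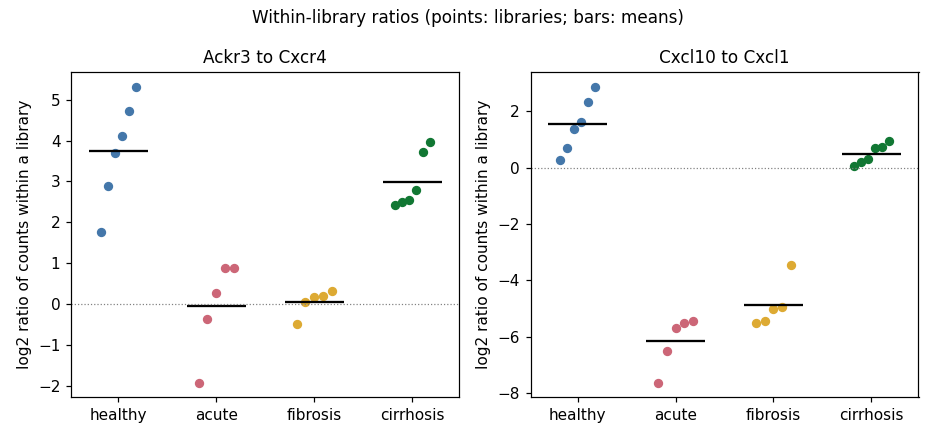
Log2 ratio of counts within each library for Ackr3 to Cxcr4 (left) and Cxcl10 to Cxcl1 (right) at the 4 stages, with points for libraries and bars for means. The healthy and cirrhosis libraries lie above the acute and fibrosis libraries in both panels, by group means of 3.75 and 2.99 against -0.05 and 0.05 on the left.

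Other genes of the CXC system were mostly low. Cxcl6 (also known as Cxcl5 in rat), another neutrophil ligand, was counted 0 to 8 times per healthy library and 452 to 5024 times per acute library. Its fitted rise was 9.20 ± 1.04 at the acute stage (adjusted p = 5.93e-06), 8.09 ± 0.63 at fibrosis (adjusted p = 3.45e-07) and 3.15 ± 0.55 at cirrhosis (adjusted p = 5.68e-04), values that rest on very few healthy counts. At each stage Cxcl6 was kept for testing through the injured libraries, which favoured a rise in advance. Pf4, a platelet chemokine, rose by 2.64 ± 0.55 at the acute stage (adjusted p = 7.52e-04) and 2.24 ± 0.57 at fibrosis (adjusted p = 0.00335). Cxcl14 fell by 1.47 ± 0.41 at fibrosis (adjusted p = 0.00602) and was higher by 2.34 ± 0.41 at cirrhosis (adjusted p = 5.40e-04), where Cxcl13, a B cell chemokine, was also higher, by 2.65 ± 0.76 (adjusted p = 0.00967) on 11 to 52 counts a library. In healthy libraries Cxcl13 had 0 to 14 counts. It was kept for testing with the help of the cirrhosis libraries, which favoured a rise in advance. Cxcl17 and Ppbp were too low to be tested against healthy.

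The leukocyte receptors of these ligands had few counts. Cxcr1 had at most 1 count and Cxcr2 at most 21 counts in any library, and neither was tested against healthy. Cxcr3 had a healthy mean of 3.77 ± 3.78 CPM (SD, n = 6) and fell by 3.86 ± 1.06 at the acute stage (adjusted p = 0.00524). At fibrosis it differed by -2.03 ± 1.03 (adjusted p = 0.0924) and at cirrhosis by 0.59 ± 0.67 (adjusted p = 0.461). Cxcr5, the receptor of Cxcl13, differed from healthy by -4.70 ± 0.39, -3.88 ± 0.34 and -0.80 ± 0.28 at the 3 stages (adjusted p = 4.47e-07, 8.05e-07 and 0.0256). In the acute libraries Cxcr3 had 3 to 13 and Cxcr5 had 5 to 15 counts. Both were kept for that comparison with the help of the healthy libraries, which favoured a fall in advance. Cxcr6, the receptor of Cxcl16, was not called at any stage (adjusted p of 0.101 to 0.953).

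The genes around these chemokines were taken from lists, whose counts stand beside the 74.1%, 71.2% and 54.5% of all tested genes called at the acute, fibrosis and cirrhosis stages. Of 17 genes on the NF-kappaB route to the neutrophil ligands, 3 were higher and 10 lower at the acute stage (median log2 fold change -0.93, beside -0.09 over all genes), 3 higher and 9 lower at fibrosis and 4 higher and 6 lower at cirrhosis. The cytokine Tnf fell by 7.82 ± 1.28 (adjusted p = 1.26e-04) and the transcription factor Cebpd fell by 4.85 ± 0.30 (adjusted p = 3.51e-08) at the acute stage. Nfkb1, a subunit of NF-kappaB itself, rose by 0.82 ± 0.28 (adjusted p = 0.0164) and the cytokine Il6 by 1.41 ± 0.59 (adjusted p = 0.0457). The other listed subunits, Rela, Nfkb2 and Relb, are named after their values were seen. Their means were 913, 550 and 141 CPM in healthy and 291, 290 and 98.6 CPM in acute libraries. Healthy and acute libraries overlapped for Nfkb2 and Relb and not for Rela. Il6 was also higher at fibrosis by 2.10 ± 0.41 (adjusted p = 6.08e-04) and at cirrhosis by 4.17 ± 0.34 (adjusted p = 2.43e-05). The rise of Cxcl1, Cxcl2 and Cxcl3 at the early stages stood beside a list of which most called genes were lower. The part of this route in that rise was not tested.

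Of 18 genes on the interferon route to Cxcl9, Cxcl10 and Cxcl11, 17 were tested, since Ifng was too low. At the acute stage 2 were higher and 12 lower (median -1.82), at fibrosis 2 higher and 10 lower (median -1.35) and at cirrhosis 5 higher and 5 lower (median -0.09). Irf1, the transcription factor that interferon gamma induces, fell by 5.45 ± 0.20 (adjusted p = 1.77e-09) at the acute stage and fell by 4.74 ± 0.24 (adjusted p = 1.10e-08) at fibrosis. Socs1, a feedback inhibitor of the pathway, fell by 4.51 ± 0.38 (adjusted p = 4.93e-07) at the acute stage. The kinase Jak2 rose by 1.77 ± 0.38 (adjusted p = 9.79e-04) and the GTPase Gbp2 by 1.91 ± 0.31 (adjusted p = 1.19e-04). At cirrhosis Jak2 and Gbp2 were higher by 1.78 ± 0.41 (adjusted p = 0.00301) and 1.39 ± 0.30 (adjusted p = 0.00224), and Irf7 and Socs1 lower, at -1.60 ± 0.35 (adjusted p = 0.00221) and -1.41 ± 0.26 (adjusted p = 8.63e-04).

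Genes that act on the chemokines after transcription or at the receptor were counted in the same way. Of 5 genes of AU-rich mRNA decay, which shortens the life of many chemokine transcripts, 2 were higher and 3 lower at the acute stage and at fibrosis, and 0 higher and 1 lower at cirrhosis. Zfp36, which promotes that decay, was lower at the 3 stages, at -6.93 ± 0.26 (adjusted p = 1.77e-09), -5.92 ± 0.24 (adjusted p = 3.78e-09) and -1.54 ± 0.26 (adjusted p = 4.06e-04). Elavl1, which stabilises such transcripts, rose by 1.92 ± 0.14 (adjusted p = 1.30e-07) at the acute stage. Khsrp, which promotes decay as Zfp36 does, went the other way from Zfp36, and rose by 1.65 ± 0.15 (adjusted p = 8.06e-07) at the acute stage and by 1.53 ± 0.14 (adjusted p = 1.09e-06) at fibrosis. Of 16 genes of receptor signalling and ligand processing, 2 were higher and 9 lower at the acute stage, 3 higher and 8 lower at fibrosis and 7 higher and 4 lower at cirrhosis, so that 11 of 16 were called at each stage. Dpp4, the peptidase that trims Cxcl10 and Cxcl12 at their amino end, fell by 4.396 ± 0.39 at the acute stage (adjusted p = 7.79e-07) and fell by 3.92 ± 0.37 at fibrosis (adjusted p = 1.52e-06). Adam10 rose by 1.72 ± 0.38 (adjusted p = 0.00115) and Adam17 by 1.08 ± 0.32 (adjusted p = 0.00757) at the acute stage, together with their substrate Cxcl16.

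**Figure D4:**
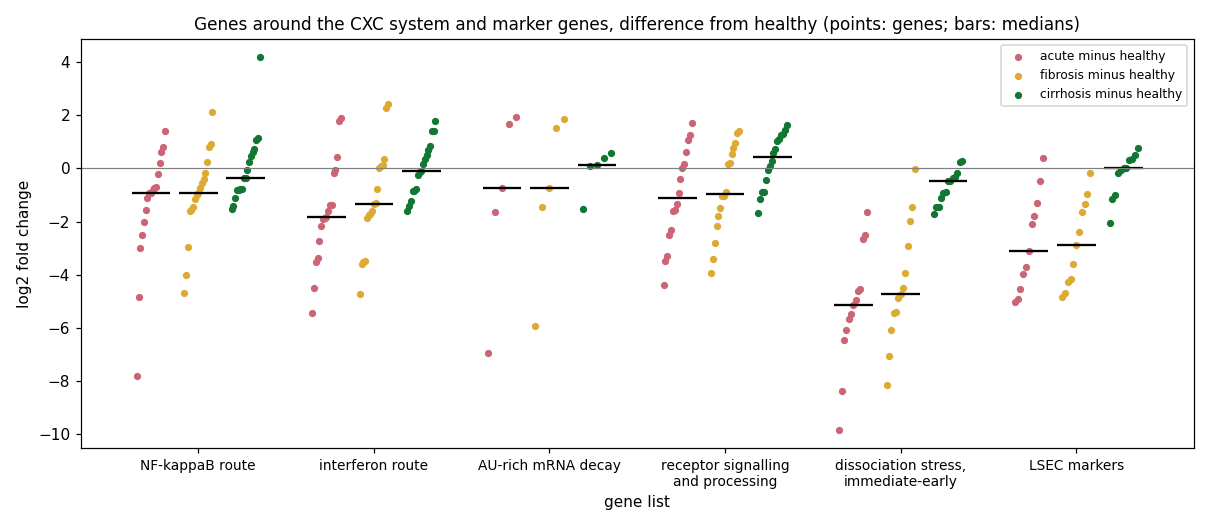
Log2 fold change from healthy (vertical axis) of the tested genes of 6 lists at the 3 stages of CCl4 injury, with points for genes and bars for list medians. The medians of the interferon route are -1.82, -1.35 and -0.09 at the acute, fibrosis and cirrhosis stages, and those of the dissociation stress and immediate-early genes are -5.14, -4.71 and -0.49.

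Marker lists moved with the same comparisons. Dissociation stress and immediate-early genes, a list that tissue digestion can induce and that includes the heat-shock genes Hspa1a and Hspa1b, were lower for 13 of 13 genes at the acute stage, 12 of 13 at fibrosis and 6 of 13 at cirrhosis. Their summed level was 35511 to 74494 CPM in healthy, 1439 to 5167 in acute, 4339 to 6838 in fibrosis and 24650 to 45058 in cirrhosis libraries. Macrophage and Kupffer cell markers were lower for 11 of 11 tested genes at both early stages, with sums of 409.6 to 4453, 88.6 to 257, 40.02 to 252 and 1016 to 3645 CPM in the same order, and Timd4 was at 0 in all acute and fibrosis libraries. T and NK cell markers were lower for 7 of 7 at the acute stage and 6 of 8 at fibrosis, with sums of 80.2 to 578, 3.04 to 9.86, 6.68 to 51.5 and 48.9 to 84.1 CPM. Hepatocyte markers were lower for 10 of 10 at the acute stage and 7 of 10 at fibrosis, with sums of 1372 to 29522, 150.1 to 945, 1398 to 5530 and 3192 to 15209 CPM. Of 9 neutrophil markers 1 was tested at the early stages and was lower at both. Their sums were 3.88 to 45.4, 0.369 to 1.39, 0.299 to 2.93 and 3.23 to 14.6 CPM, and Ltf was at 0 in the acute libraries. The tested marker, Csf3r, had 119 to 1309 counts in a healthy and 7 to 33 in an acute library. Markers with so few counts in the early libraries were kept with the help of the healthy ones. A fall of these was therefore favoured in advance. The part of these lists in the members' values was not tested.

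At cirrhosis 2 of 12 macrophage markers were higher and 0 lower, 3 of 9 T and NK cell markers higher and 4 lower, 4 of 5 tested neutrophil markers higher and 1 lower, and 3 of 10 hepatocyte markers lower. Markers tested here but not at the early stages, also in the lists below, were kept with the help of the cirrhosis libraries. A rise of these was therefore favoured in advance. Mmp8, for example, had 0 to 8 counts in a healthy and 12 to 88 in a cirrhosis library. The summed neutrophil levels of healthy and cirrhosis libraries, given above, overlapped. The remaining marker lists are given by counts. B cell markers were lower for 3 of 3 tested genes at the acute stage, 2 of 3 at fibrosis and 1 of 4 at cirrhosis. Cholangiocyte markers were lower for 2 of 3 at the acute stage, higher for 1 and lower for 2 of 3 at fibrosis and higher for 3 of 5 at cirrhosis. In the acute libraries B cell markers summed to 0.092 to 0.736 CPM and cholangiocyte markers to 0.354 to 0.632 CPM. Their falls at that stage were therefore also favoured in advance. Stellate cell and fibroblast markers were higher for 1 and lower for 6 of 9 at the acute stage, higher for 4 and lower for 3 of 9 at fibrosis and higher for 8 of 10 at cirrhosis. Their sum was 284 to 786 CPM in healthy, 1315 to 2133 in acute, 1302 to 1746 in fibrosis and 628 to 1929 in cirrhosis libraries. Most of the early sums was the single gene Reln, which encodes reelin and stood at 118 to 216 CPM in healthy, 1306 to 2124 in acute and 1174 to 1571 in fibrosis libraries. Other markers of the list were lower at the acute stage, for example the collagen Col3a1, at 223 CPM on average in healthy and 5.20 CPM in acute libraries, a gene named here after its values were seen.

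The genes that most resembled each member over the 22 libraries were found by the root mean square difference of centred log2 CPM among 11133 genes. This is a description over libraries that share groups and scaling. For Cxcl1 they were Sod2 (0.37), Cxcl2 (0.40) and Rab32 (0.43), and for Cxcl2 they were Cxcl1 (0.40), Opn3 (0.43) and Gdf6 (0.43). Those of Cxcl3 were the matrix metalloproteases Mmp13 (0.72), Mmp3 (0.87) and Mmp10 (0.89). Cxcl9 and Cxcl11 were each other's closest gene at 0.62, followed by Vcam1 (0.80) and Hmcn1 (0.86) for Cxcl9 and by Timp3 (0.69) and Oas1b (0.77) for Cxcl11. The neighbours of Cxcl10 were Gja4 (0.51), Ifi47 (0.55) and Tmem176a (0.56). Cxcl12 was nearest to Arvcf (0.62), Fgf12 (0.65) and Iqgap2 (0.67), and Cxcl16 to Slc11a2 (0.25), Ywhag (0.28) and Bid (0.28). Cxcr4 was nearest to Rasa3 (0.48), Traf1 (0.49) and Rhbdf2 (0.54), and Ackr3 to Cd40 (0.32), Ror2 (0.34) and Jag2 (0.35). For scale, the SD of the members' own log2 CPM over the libraries ran from 0.82 (Cxcr4) to 3.52 (Cxcl3).

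In the TAA experiment 5 of the 10 members were called between the group labelled TAA control and the group labelled control, 3 higher and 2 lower in the former, where 29.4% of all genes were called, 13.5% higher and 15.9% lower. No direction of disease is attached to these differences. The members' median was -0.16, beside 0.03 over all genes. Cxcl10 stood at 1599, 2009, 1797, 1103 and 1435 CPM in the libraries labelled control and at 4684, 3541, 3467, 4809.5 and 4862 CPM in those labelled TAA control. The groups did not overlap, and the difference was 1.44 ± 0.17 (2.72-fold, adjusted p = 1.08e-04). Cxcl2 stood at 126, 189.8, 153, 97.1 and 117 CPM and at 223, 205, 218, 377 and 386 CPM, also without overlap, a difference of 1.03 ± 0.23 (adjusted p = 0.00358). Cxcl12 stood at 34.2, 68.7, 59.4, 16.7 and 28.3 CPM and at 75.4, 47.8, 71.8, 81.3 and 84.6 CPM, with overlap, a difference of 0.95 ± 0.34 (adjusted p = 0.0367).

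The lower members in the group labelled TAA control were Cxcl3 and Ackr3. Cxcl3 was low throughout, at 3.77, 3.89, 2.21, 4.83 and 2.84 CPM in the group labelled control and 0.374, 1.57, 0.790, 1.15 and 0.957 CPM in the other, a difference of -1.93 ± 0.36 (adjusted p = 0.00125). Ackr3 stood at 1542, 1149, 954, 1064 and 1044 CPM and at 530.5, 680.0, 503, 765 and 774 CPM, a difference of -0.82 ± 0.16 (adjusted p = 0.00178). Neither pair of groups overlapped. Cxcl16 differed by -0.38 ± 0.11 (adjusted p = 0.0136), under the fold threshold. Cxcl1 differed by 0.07 ± 0.21 (95% interval -0.38 to 0.52), Cxcr4 by 0.28 ± 0.56 (-0.96 to 1.51), Cxcl9 by -0.59 ± 0.43 (-1.54 to 0.36) and Cxcl11 by -0.50 ± 0.24 (-1.03 to 0.03), with adjusted p-values of 0.108 to 0.801. Leaving out replicate 10 of the group labelled TAA control brought Cxcl9 (-0.96, adjusted p = 0.0311) and Cxcl11 (-0.63, adjusted p = 0.0533) past the call threshold. Cxcl11 also passed it without replicate 1 (-0.63, adjusted p = 0.0511) or replicate 4 (-0.60, adjusted p = 0.0792) of the group labelled control.

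**Figure D5:**
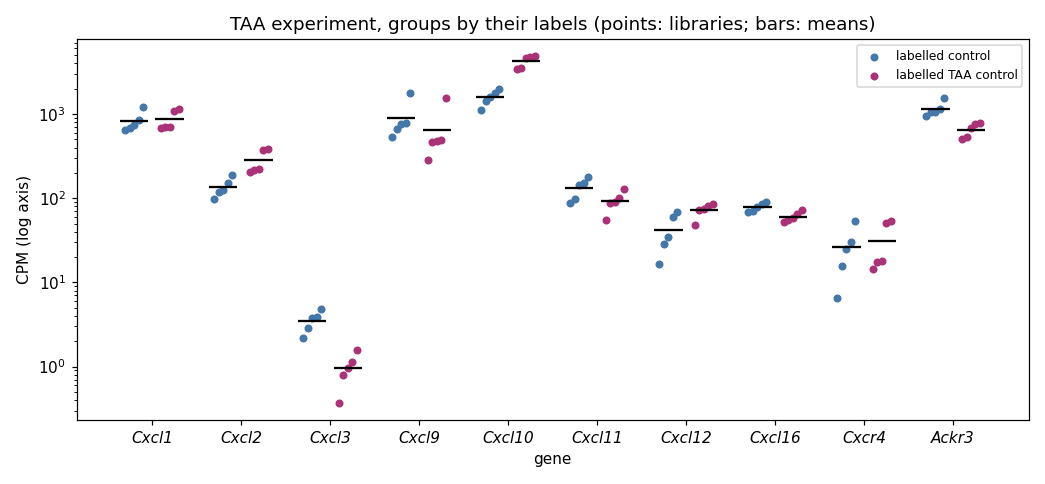
CPM (log axis) of the 10 genes in the TAA experiment, with points for the 5 libraries labelled control and the 5 labelled TAA control and bars for means. The groups are apart for Cxcl2, Cxcl3, Cxcl10 and Ackr3, for example 1103 to 2009 against 3467 to 4862 CPM for Cxcl10.

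Within the group labelled TAA control, the counts of replicates 14 and 15 gave a chi-square per degree of freedom of 2.96 over genes, while the next smallest value for a pair of replicates in the series was 23.6. They differed by more than sampling noise and were counted as separate libraries. Whether they share an animal or RNA was not tested, and if they do, the group holds 4 independent samples and its p-values are too small. They held 1095 and 1135 CPM of Cxcl1 and 377 and 386 CPM of Cxcl2. Averaged into 1 library, an alternative chosen after this was seen, they left the count at 5 members called. In this experiment 12 of 13 dissociation stress and immediate-early genes were higher in the group labelled TAA control, with sums of 45387 to 63980 CPM against 14046 to 29563. Stellate cell and fibroblast markers were lower there for 8 of 10 tested genes, with sums of 344 to 538 against 2108 to 5237 CPM. T and NK cell markers were higher there for 6 of 7, with sums of 96.8 to 168 against 32.9 to 63.2 CPM. Hepatocyte markers were lower there for 8 of 10, with sums of 678 to 1529 against 2360 to 5862 CPM, and cholangiocyte markers for 4 of 4. LSEC and macrophage markers were higher for 3 of 11 each and lower for 0, the 1 neutrophil marker tested was higher and the 1 B cell marker tested was not called. Of the interferon route 6 genes were higher and 4 lower, and of the NF-kappaB route 3 higher and 4 lower. The part of these lists in the members' values was not tested. Cxcr3 and Cxcr6 were higher by 2.32 ± 0.60 (adjusted p = 0.00822) and 3.35 ± 0.56 (adjusted p = 7.21e-04), and Cxcl14 lower, at -4.79 ± 0.66 (adjusted p = 2.30e-04). Their counts per library were 3 to 15, 1 to 14 and 144 to 467 in the group labelled control. In the other group they were 12 to 65, 34 to 80 and 5 to 10. Each was kept for testing with the help of the group where it was higher, so its direction was favoured in advance. The same holds for markers above with few counts in either group.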

How the data were processed

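LSECs were isolated by liver perfusion, digestion and centrifugation on an iodixanol gradient, and poly(A) RNA libraries (TruSeq Stranded mRNA) were sequenced on a HiSeq2500. The authors mapped reads to Rnor_6.0 with STAR and estimated gene expression with RSEM; their processing notes also name FastQC, Trim Galore and limma, with no versions. The deposited files hold 1 sample each, with expected counts for 32623 genes, of which 10.3 to 12.4% were not whole in a library. Expected counts divide reads that fit several genes.

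Counts were rounded. For each pair of groups, genes were kept by filterByExpr and tested with TMM factors and limma-voom (limma 3.58.1, edgeR 4.0.16, R 4.3.3). Genes were called at p below 0.05 and a fold change above 1.5, the thresholds of the study's methods, and adjusted p-values cover all genes tested. CPM used TMM factors over 22 and 10 libraries, and ratios a pseudocount of 0.5. Counts of different genes were set against each other only as ratios within a library, with no correction for transcript length, so that only their differences between groups can be read. The fits were tested on simulated data in which few genes changed, in balanced directions and with the same spread for every gene. The real libraries differed from this, so the simulation does not cover their setting. Alternatives included edgeR, DESeq2 1.42.0, other scaling and filters, library weights, 1 fit over the CCl4 libraries, a replicate block and leaving out each library. The members and lists were chosen with earlier results of these data known. Within lists, the genes named were at most the 2 largest rises and 2 largest falls per comparison with healthy, with exceptions stated where they occur; any gene of the other CXC ligands and receptors could be named. Replicate numbers follow the titles; for some TAA libraries the descriptions give another number.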

Additional observations from a re-analysis of the deposited data

Results flagged for a closer look

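A library was looked at again where its gap to the nearest other library of its group, divided by the group's range, passed Dixon's criterion. Gap and range were taken on log2 CPM with a pseudocount of 0.5, and the levels below are in CPM. On the CPM scale itself other libraries could pass. This held for 5 of 60 combinations of a member and a group, where chance gives about 3. Cxcl3 stood at 3.19 CPM in healthy replicate 3, against 0.751 to 1.27 in the other healthy libraries. Cxcl11 stood at 35.8 CPM in cirrhosis replicate 2, against 79.6 to 125 in the others, and at 61.3 CPM in fibrosis replicate 15, against 6.13 to 11.9. Cxcl12 stood at 47.8 CPM in replicate 12 of the group labelled TAA control, against 71.8 to 84.6. Ackr3 stood at 63.9 CPM in acute replicate 4, against 99.6 to 118. Without fibrosis replicate 15 Cxcl11 fell by 3.18 on the log2 scale between healthy and fibrosis (limma adjusted p = 6.84e-05), and with it Cxcl11 fell by 2.64. Without acute replicate 4 Ackr3 fell by 2.62 at the acute stage (limma adjusted p = 2.94e-05), and with it Ackr3 fell by 2.79.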

How the results depend on the processing

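Of the comparisons and members under alternatives other than leaving out a library, 704 values kept their direction and their side of the threshold, 13 passed it only there, 3 lost it and 10 turned in sign. When 1 library was left out these numbers were 725, 12, 0 and 23. The members called at the acute stage, at fibrosis and between either and cirrhosis kept their calls throughout. At cirrhosis against healthy, a single fit over the CCl4 libraries called 1 member, since Cxcl10 (-0.86) was lost. TMM factors were low in healthy libraries (0.712 to 0.939, against 0.989 to 1.18 in the others), and without TMM the median of all genes against healthy moved from -0.09, -0.03 and 0.07 to 0.32, 0.37 and 0.42 at the 3 stages. There Cxcr4 was called at the acute stage (1.43) and at fibrosis (1.41), Cxcl9 at cirrhosis (1.12) and Cxcl10 not (-0.51), and at cirrhosis Cxcl2 (0.045) and Ackr3 (0.086) turned in sign. Cxcr4 was also called by a single fit (0.98 at the acute stage, 0.95 at fibrosis) and, at fibrosis, with DESeq2 size factors (1.04) or no filter (1.01), but not by edgeR or DESeq2. Cxcl16 at cirrhosis turned with edgeR (-0.009) and library weights (-0.075). Cxcr4 between fibrosis and the acute stage turned with edgeR (-0.15), DESeq2 (-0.15), no TMM (-0.027), no filter (-0.001) and a single fit (-0.033). Cxcl1 in the TAA experiment turned with replicates 14 and 15 averaged (-0.032). None of these turned values passed the threshold, and the causes were not tested.

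Leaving out each library gave 9 to 10 members called at the acute stage and at fibrosis, 2 to 3 at cirrhosis, 3 to 4 between fibrosis and the acute stage, 9 to 9 in both comparisons of cirrhosis with the early stages, and 5 to 7 in the TAA experiment. Values that turned in sign ranged, against healthy at cirrhosis, from -0.10 to 0.35 (Cxcl11), -0.062 to 0.39 (Cxcl12) and -0.15 to 0.20 (Cxcl16). Between fibrosis and the acute stage they ranged from -0.063 to 0.51 (Cxcl2), -0.21 to 0.44 (Cxcl12), -0.16 to 0.35 (Cxcr4) and -0.01 to 0.21 (Ackr3), and in the TAA experiment from -0.038 to 0.21 (Cxcl1) and -0.14 to 0.64 (Cxcr4). Replicate numbers were not taken to pair libraries. Correlations of deviations of same-numbered libraries were over 0.1 in 2 of 4 pairs of acute with healthy (0.031 to 0.187) and 0 of 4 of cirrhosis with acute. For cirrhosis with healthy they were over 0.1 in 3 of 6 pairs. They were 0.290, 0.162 and 0.241 for replicates 1 to 3, and -0.242, -0.210 and -0.216 for replicates 4 to 6. What sets these replicates apart was not tested. With the replicate number as a block 9 members were called at the acute stage, 9 between cirrhosis and the acute stage and 3 at cirrhosis against healthy, where Cxcl9 was added (0.80, limma adjusted p = 0.0604).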
